A study of Mus musculus with 4 samples.

Results

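The Hedgehog receptors and Gli factors were read through 16 probe sets, out of 22690 on the array, that the platform annotation assigns to 1 gene only, for 9 of the 12393 genes measured: Shh, Ptch1, Gas1, Smo, Sufu, Gli1, Gli2, Gli3 and Hhip. The genes were listed by name, with earlier results of these data known, and no signal threshold entered the choice of probe sets. Gas1 had 3 probe sets, Ptch1, Smo, Sufu, Gli2 and Hhip had a pair each, and Shh, Gli1 and Gli3 had 1 each. The cells were cultured neural stem cells from ganglionic eminences of C57/Bl6 mouse embryos at embryonic day 14.5, kept in EGF medium without serum. The 3 arrays of cells labelled Olig1 KO (replicates 1 to 3; the titles give the numbers 37 and 38 to replicates 2 and 3) were compared with the 1 array of wild-type cells, to ask which transcripts differ when the transcription factor gene Olig1 is mutated. The labels describe neither the mutant allele nor whether separate embryos or cultures gave the 3 KO samples. The p-values rest on the spread among these arrays. That spread includes a difference in sex, given below, between KO replicate 1 and KO replicates 2 and 3. Between KO replicates 2 and 3 it may be only a technical one.

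Hedgehog signalling sets ventral identity in the embryonic forebrain and supports neural stem cells and early oligodendrocyte precursors. The secreted ligand, Shh in this tissue, binds the membrane protein Ptch1, which otherwise holds the signal transducer Smo inactive; Gas1 is a surface protein that helps Ptch1 bind the ligand. Active Smo, acting at the primary cilium, releases the Gli zinc finger transcription factors from their cytoplasmic inhibitor Sufu. Gli2 acts mainly as the first activator, Gli3 mainly as a repressor after proteolytic trimming, and Gli1 as an activator that is itself a target gene. Ptch1 and Hhip, a decoy that binds the ligand, are target genes as well, so they limit the pathway that induces them.

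The sequences around the start sites of these genes are shown because Ptch1, Gli1 and Hhip are known as Gli target genes and the Gli proteins bind DNA directly. Ptch1 is printed as the target gene with signal in every array, Gas1 as the coreceptor gene with signal in every array and Gli2 for its match to a Gli site. The windows run from 250 bases before to 50 bases after the start site, on the strand of the gene, from RefSeq (GRCm38.p6), and 7 of the 9 genes matched an entry (Ptch1, Gas1, Smo, Sufu, Gli2, Gli3 and Hhip). The consensus Gli site GACCACCCA, searched on both strands, was in none of the 7 windows and in 0.253% of all 32851 windows. Its shorter core ACCACCC, contained in the consensus, was in the Gli2 window alone and in 4.61% of all windows. The CCAAT box, searched as CCAAT, was in the Gas1 and Sufu windows and in 37.4% of all windows. Capitals mark these matches in the Gli2 window (chr1:119053570-119053869, minus strand, where the core is on the opposite strand to the gene and starts 205 bases before the start site, itself 786 bases inside the annotated gene) and in the Gas1 window (chr13:60177486-60177785, minus strand, 68 bases before the start site). The Ptch1 window (chr13:63565686-63565985, minus strand) held no match; its start site lies 7725 bases inside the 5′ end of the annotated gene, so it belongs to a downstream start.
Ptch1: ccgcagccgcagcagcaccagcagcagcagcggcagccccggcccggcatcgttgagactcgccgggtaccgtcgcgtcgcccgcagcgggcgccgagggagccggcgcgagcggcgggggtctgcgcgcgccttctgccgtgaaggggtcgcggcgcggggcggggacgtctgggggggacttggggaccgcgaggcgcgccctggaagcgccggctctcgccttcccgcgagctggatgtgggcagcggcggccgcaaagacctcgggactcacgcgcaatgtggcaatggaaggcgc
Gas1: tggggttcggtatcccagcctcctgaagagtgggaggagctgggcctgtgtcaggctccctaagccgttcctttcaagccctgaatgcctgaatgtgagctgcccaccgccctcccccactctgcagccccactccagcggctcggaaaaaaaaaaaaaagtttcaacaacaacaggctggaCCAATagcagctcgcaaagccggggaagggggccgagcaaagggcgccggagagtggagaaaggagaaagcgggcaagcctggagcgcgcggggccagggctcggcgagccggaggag
Gli2: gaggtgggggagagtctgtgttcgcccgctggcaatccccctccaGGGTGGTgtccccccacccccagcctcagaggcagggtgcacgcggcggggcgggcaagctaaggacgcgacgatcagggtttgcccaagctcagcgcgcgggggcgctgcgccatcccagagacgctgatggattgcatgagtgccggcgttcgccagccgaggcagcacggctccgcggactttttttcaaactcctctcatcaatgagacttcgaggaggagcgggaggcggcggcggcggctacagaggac
The Ptch1 window holds 47 CG dinucleotides, the Gli2 window 28 and the Gas1 window 17, where the median over all windows is 7. Fewer were held by 98.6%, 85.8% and 68.6% of all windows, in the same order. These matches describe letters in a short window and say nothing about binding in these cells.

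The 4 arrays had been scaled to the same trimmed mean, and a signal was read as background where it did not exceed the highest of 27 bacterial control probe sets in the same array, which was 21.3, 39.99 and 87.8 in KO replicates 1, 2 and 3 and 30.5 in the wild-type array. All 10 neural stem cell markers, among them Sox2, Nes and Egfr, were above background in all 4 arrays, while 0 of 9 measured markers of the ventral telencephalon were, with Dlx1, Gsx2, Nkx2-1 and Lhx8 at background in every array. Of markers for other cell types, 4 of 5 for astrocytes, 4 of 6 for the oligodendrocyte lineage and 3 of 7 for neurons were above background in all 4 arrays, as were 1 of 5 for the dorsal telencephalon, 1 of 5 for microglia, 1 of 6 for mesenchyme and 0 of 4 for endothelium. The Olig1 probe set gave 3840, 4438 and 8548 in the KO arrays and 7618 in the wild-type array, so it did not separate the genotypes, and the arrays are called by their labels. By 18S ribosomal RNA and sex-linked genes, the arrays also fell into pairs across genotype. The median 18S signal was 946 and 2823 in KO replicates 2 and 3, and 7.24 in KO replicate 1 and 4.64 in the wild-type array. The X-inactivation RNA Xist split them likewise (161 and 46.5 against 8472 and 9480). So did the Y-chromosome gene Eif2s3y (654 and 1160 against 1.53 and 0.61), so the pairs differ in sex. Over all kept probe sets, the SD of log2 differences was smallest, 0.372, between KO replicate 1 and wild type. KO replicate 2 lay closer to KO replicate 1 (0.517) than to KO replicate 3 (0.550). A comparison of genotypes within a pair sets KO replicate 1 against the wild-type array alone.

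The receptor side of the pathway was measurable in these cultures and the ligand, Gli and Hhip probe sets were mostly near background. Of the 16 probe sets, 6 were above background in all 4 arrays, 2 of them for Gas1, 2 for Smo and 1 each for Ptch1 and Sufu, and 3 were at background in every array. That is 37.5% of them above background throughout, where 58.2% of all probe sets on the array were. Of all probe sets, 13.9% were at background in every array. The same 6 passed the filter that left out the 40% of probe sets with the lowest mean, and the other 10 did not. KO replicate 3 had the highest background and the fewest Hedgehog probe sets above it, 6, against 13 and 12 in KO replicates 1 and 2 and 10 in the wild-type array. Of all probe sets, 80.3%, 75.7% and 60.7% were above background in KO replicates 1, 2 and 3, and 76.5% in wild type. The plot of signals by array shows each value against its background.

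**Figure D1:**
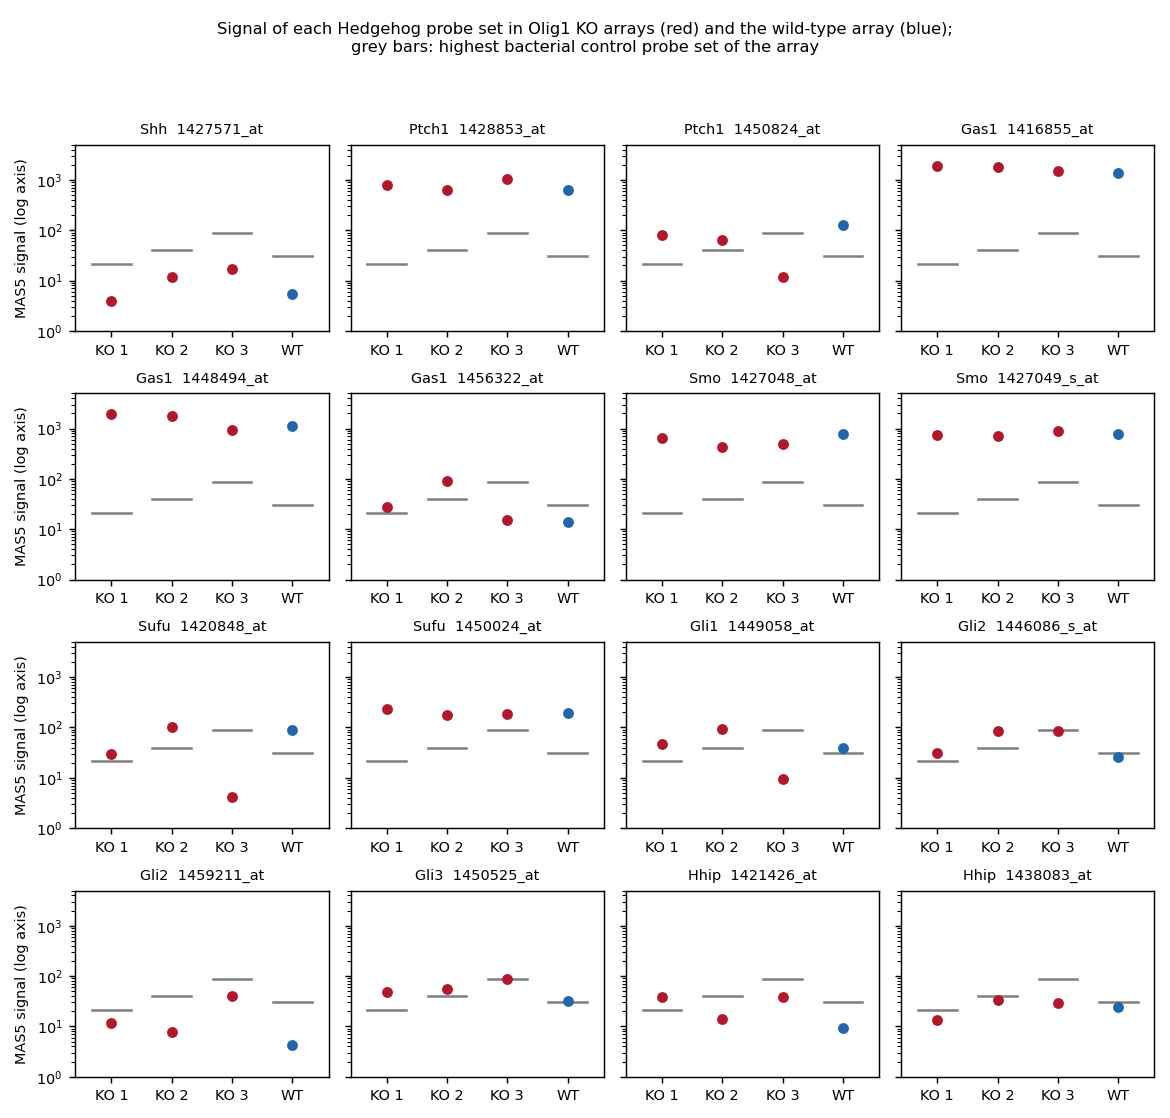
Signal (MAS5, log axis) of the 16 Hedgehog probe sets in the 3 Olig1 KO arrays (red) and the wild-type array (blue); grey bars mark the highest bacterial control probe set of each array. Ptch1 1428853_at, Gas1 1416855_at and 1448494_at, both Smo probe sets and Sufu 1450024_at lie above the bars in all 4 arrays, and Shh 1427571_at lies below them in all 4.

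No Hedgehog probe set passed the test of KO against wild type. The limma fit took the spread from the 3 KO arrays and assumed that the wild-type array varies like them. For each probe set, this spread was drawn toward that of all fitted probe sets. In the fit, 0 of the 6 kept members and 0 of all 13575 kept probe sets (0%) had an adjusted p under 0.05. No member had an unadjusted p under 0.05, against 2.39% of kept probe sets (324). Among the 6 kept members, 2 had every KO array above wild type and 1 had every KO array below it, where 22.6% of kept probe sets were higher in this sense and 23.3% lower. Their median log2 difference (on log2(signal + 14.4), KO minus wild type) was 0.15, and that of all kept probe sets was -0.01. Over all 16, kept or not, 7 (43.8%) were higher and 2 (12.5%) lower in all 3 KO arrays, where 25.1% and 20.5% of all probe sets were; 5 of these 7 and 1 of these 2 were left out by the filter. In bulk cultures, a different number of cells that express a gene and a different RNA level per cell cannot be told apart.

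**Figure D2:**
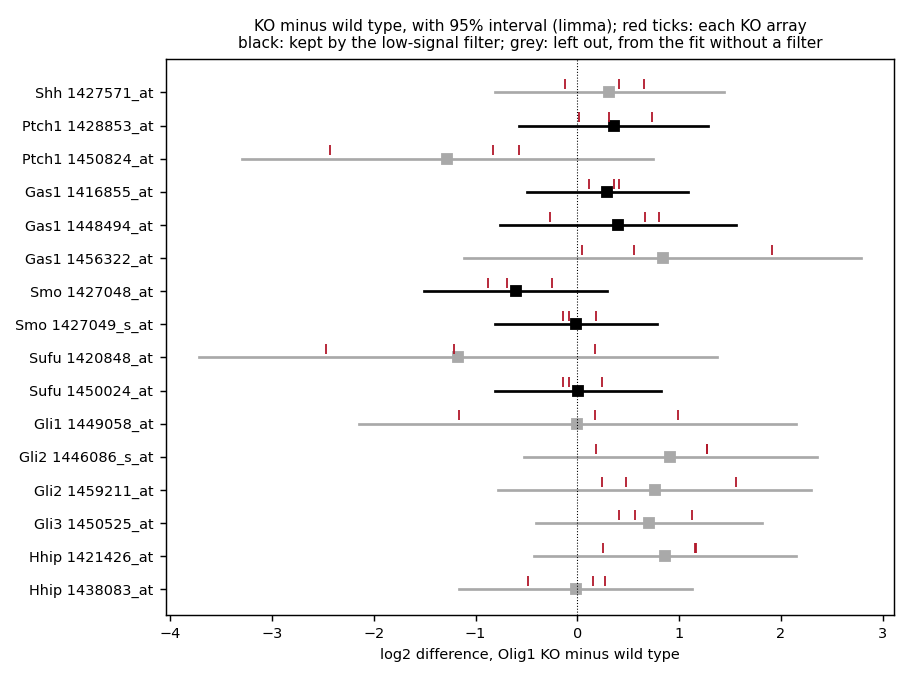
Log2 difference of Olig1 KO minus wild type for each Hedgehog probe set (squares) with its 95% interval from limma (bars) and each KO array minus the wild-type array (red ticks); black marks the 6 kept probe sets and grey the 10 left out by the filter. Every interval includes 0, and the kept differences run from -0.61 for Smo 1427048_at to 0.40 for Gas1 1448494_at.

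The ligand gene Shh was not detected. Its probe set 1427571_at gave 3.84, 11.9 and 16.7 in KO replicates 1, 2 and 3 and 5.37 in the wild-type array. All 4 signals were at background, so no difference can be given a size.

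Ptch1, the Hedgehog receptor and a target gene of the pathway, was read in opposite directions by its 2 probe sets. Probe set 1428853_at gave 778, 632 and 1046 in KO replicates 1, 2 and 3 and 623 in the wild-type array. All 3 KO arrays were above the wild-type array, replicate 2 by 0.02 on the log2 scale, and the mean difference was 0.36 (SE 0.39, 95% interval -0.57 to 1.28, limma adjusted p = 0.999). It was smaller than the spread of the KO arrays, which averaged 818 ± 210 (SD, n = 3), and it was 0.17 without KO replicate 3. Probe set 1450824_at gave 80.7, 65.3 and 11.8 in KO replicates 1, 2 and 3 and 127 in the wild-type array. Here all 3 KO arrays were below the wild-type array, and replicate 3 was at background. The difference was -1.28 (SE 0.80, 95% interval -3.30 to 0.75, limma adjusted p = 0.9997 in the fit without a filter). It was -0.70 without KO replicate 3 and -0.57 between KO replicate 1 and wild type alone. The arrays fall in the same order by the 3′ over 5′ signal of the beta-actin controls, which reflects RNA integrity and was 1.25, 1.30 and 1.82 in KO replicates 1, 2 and 3 and 1.11 in the wild-type array; the ratio for Gapdh did not follow it (0.794, 1.03 and 0.842 against 0.759). The part of RNA integrity in the signal of 1450824_at was not tested.

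Gas1, which encodes the surface protein that promotes ligand binding, was above background in all 4 arrays with 2 of its 3 probe sets. With 1416855_at the signal was 1872, 1808 and 1517 in KO replicates 1, 2 and 3 and 1402 in the wild-type array, so the groups did not overlap. The difference was 0.30 (SE 0.33, 95% interval -0.50 to 1.09, limma adjusted p = 0.999). With 1448494_at it was 1983, 1802 and 935 in the KO arrays and 1130 in the wild-type array. KO replicates 1 and 2 were again higher than wild type, replicate 3 was lower, and the difference was 0.40 (SE 0.49, 95% interval -0.76 to 1.56, limma adjusted p = 0.999). Leaving out KO replicate 3 raised the difference to 0.73, and leaving out KO replicate 1 lowered it to 0.20. The third probe set, 1456322_at, gave 27.3, 92.7 and 14.9 in the KO arrays and 14.0 in the wild-type array. It was above background in KO replicates 1 and 2 only, and its value in replicate 2 was the one bright reading.

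Smo, the transducer that Ptch1 restrains, was measured by 2 probe sets made from the same sequence record, and they differed in how far the KO arrays lay from wild type. With 1427048_at the signal was 662, 425 and 483 in KO replicates 1, 2 and 3 and 790 in the wild-type array, lower in every KO array. The difference was -0.61 (SE 0.38, 95% interval -1.50 to 0.29, limma adjusted p = 0.999), with the largest size among the 6 kept members. The low values were those of KO replicates 2 and 3, the arrays with the high 18S signal, and within the other pair KO replicate 1 differed from wild type by -0.25. With 1427049_s_at, whose suffix marks probes shared between transcripts, the signal was 733, 702 and 879 in the KO arrays and 774 in the wild-type array. These groups overlapped, and the difference was -0.01 (SE 0.34, 95% interval -0.81 to 0.79, limma adjusted p = 0.999).

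**Figure D3:**
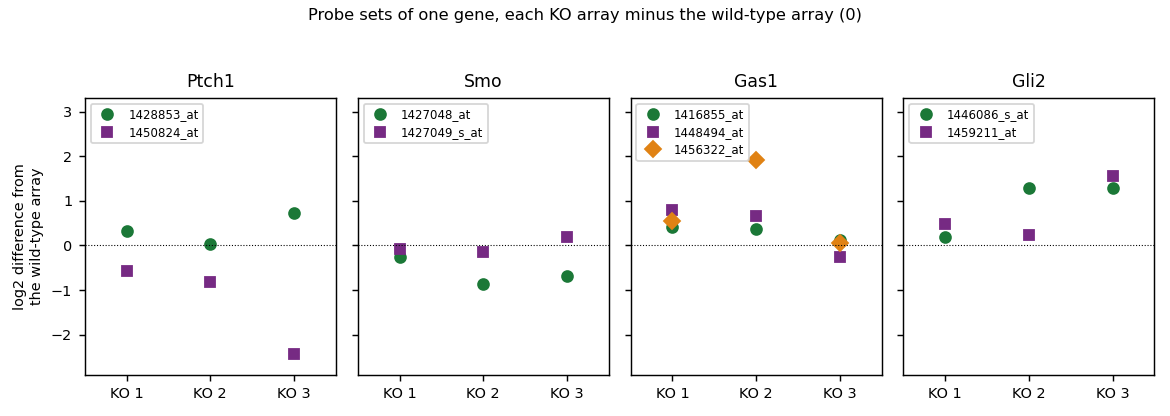
Log2 difference of each Olig1 KO array from the wild-type array (dotted line at 0) for the probe sets of Ptch1, Smo, Gas1 and Gli2, with 1 marker shape per probe set. The 2 Ptch1 probe sets lie on opposite sides of 0 in all 3 KO arrays. The points of both Gli2 probe sets and of Gas1 1456322_at have no exact size, since these were at background in the wild-type array. Nor has the KO replicate 3 point of Ptch1 1450824_at, which was at background there.

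Sufu, the inhibitor that holds Gli proteins in the cytoplasm, had its wild-type signal inside the range of the KO arrays with its brighter probe set. The signal of 1450024_at was 237, 178 and 185 in KO replicates 1, 2 and 3 and 197 in the wild-type array. KO replicate 1 was above wild type and the other two were below it, and the difference was 0.01 (SE 0.34, 95% interval -0.81 to 0.83, limma adjusted p = 0.999). The other probe set, 1420848_at, made from the same sequence record, gave 30.4, 102 and 4.22 in the KO arrays and 89.2 in the wild-type array. It spanned a 24.3-fold range among the KO arrays and was at background in replicate 3, so its difference of -1.17 (SE 1.01, limma adjusted p = 0.9997 without a filter) has no exact size. It was -0.52 without KO replicate 3 and -1.84 without KO replicate 2.

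Of the transcription factors, Gli1, the activator that is also the usual readout of pathway activity, was close to background. Its probe set 1449058_at gave 46.0, 92.2 and 9.62 in KO replicates 1, 2 and 3 and 39.3 in the wild-type array. It exceeded background in KO replicates 1 and 2 and in the wild-type array, and the wild-type value lay between the KO values. The log2 difference was -0.0005 (SE 0.85, 95% interval -2.15 to 2.15, limma adjusted p = 0.99998 without a filter). With KO replicate 3 at background, this difference has no exact size, and the wide interval does not bound the change.

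Gli2, the main activator, had 2 probe sets made from the same sequence record, and neither passed background in wild type. The signal of 1446086_s_at was 31.6, 83.8 and 83.9 in KO replicates 1, 2 and 3 and 26.1 in the wild-type array. It passed background in KO replicates 1 and 2 only. With the wild-type array and KO replicate 3 at background, the fitted difference of 0.91 (SE 0.57, limma adjusted p = 0.9997 without a filter) has no exact size. Probe set 1459211_at gave 11.6, 7.71 and 40.6 in the KO arrays and 4.27 in the wild-type array, at background in all 4.

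Gli3, the main repressor, had a signal of 47.4, 54.8 and 87.5 in KO replicates 1, 2 and 3 and 32.2 in the wild-type array with its probe set 1450525_at. All 3 KO arrays were above wild type. Background was passed in KO replicates 1 and 2 and narrowly in the wild-type array, while in KO replicate 3 the signal was just under a background of 87.8. The difference was 0.70 (SE 0.44, 95% interval -0.41 to 1.81, limma adjusted p = 0.9997 without a filter), and KO replicate 1 alone differed from wild type by 0.41. The highest signal was in the array with the highest background; the part of that background in the difference was not tested.

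Hhip, the ligand decoy and target gene, stayed at or near background. Probe set 1421426_at gave 38.6, 13.9 and 38.6 in KO replicates 1, 2 and 3 and 9.29 in the wild-type array. It passed background in KO replicate 1 only, and with wild type at background its difference of 0.86 (SE 0.51, limma adjusted p = 0.9997 without a filter) has no exact size. Probe set 1438083_at gave 13.6, 32.8 and 29.1 in the KO arrays and 24.7 in the wild-type array, all 4 at background.

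The other genes of the pathway, 66 in 5 lists, were looked up in the same way, with 1 probe set for each gene (the one with the highest mean), and 49 were measured and 27 kept. In limma 0 of the 27 passed the adjusted threshold, 5 (18.5%) had every KO array above wild type and 8 (29.6%) below, against 22.6% and 23.3% of all kept probe sets, and the median log2 difference was 0.01. Nkx2-2, a homeobox gene of ventral progenitors and a Hedgehog target, was 1 of the 49 measured genes (2.04%), and the only one, with an unadjusted p under 0.05, a share near the 2.39% of kept probe sets and the 2.75% of all probe sets in the fit without a filter. It gave 193, 111 and 92.0 in KO replicates 1, 2 and 3 and 371 in the wild-type array, lower in every KO array, with a difference of -1.45 (SE 0.45, 95% interval -2.52 to -0.39, limma adjusted p = 0.999). Of the other 4 kept target genes, Bcl2, an inhibitor of apoptosis, was higher in all 3 KO arrays (difference 0.23), and the cyclin genes Ccnd1 and Ccnd2 and the vesicle traffic gene Rab34 overlapped, at 0.04, 0.02 and -0.06.

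Among the ligand genes, Dhh, a relative of Shh, was above background in all 4 arrays with 1434959_at, at 326, 307 and 334 in KO replicates 1, 2 and 3 and 450 in the wild-type array. The difference was -0.46 (SE 0.32, 95% interval -1.23 to 0.30, limma adjusted p = 0.999). Its other probe set, 1422127_at, was also lower in every KO array, at 57.2, 61.2 and 4.12 against 160.3, and at background in replicate 3. Ihh, another relative of Shh, was higher in every KO array, at 61.1, 96.3 and 69.4 against 31.9 in the wild-type array, and at background in replicate 3. The wild-type value of Ihh was just above its background of 30.5. With KO replicate 3 at background, the difference of 0.94 (SE 0.40, limma adjusted p = 0.9997 without a filter) has no exact size. Dhh was the only kept gene of the 5 measured for ligands and their release. Of the 4 measured coreceptor genes only Boc was kept, and its difference was 0.10.

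In the list for the cytoplasm and the cilium, 19 of 20 measured genes passed the filter. Every KO array lay above wild type for 4 of them (21.1%) and below it for 5 (26.3%), near the 22.6% and 23.3% of all kept probe sets, and the median was 0.01. Evc, a cilium protein that works with Smo, gave 211, 150 and 128 in KO replicates 1, 2 and 3 and 299 in the wild-type array, with a difference of -0.84 (SE 0.38, limma adjusted p = 0.999), while a dimmer Evc probe set stayed at background throughout. The protein kinase A genes, whose kinase primes Gli proteins for trimming, were lower in all 3 KO arrays for Prkar1a and Prkaca, at -0.46 and -0.42. Prkacb overlapped, at -0.14. For Prkar1a, KO replicate 1 differed from wild type by only -0.04. These signals do not measure the activity of the kinase. Kif3a, a motor subunit of cilium transport, was higher in all 3 KO arrays with 1420375_at (0.63) and overlapped with 1449841_at (-0.29). Csnk1d, a casein kinase gene, differed by 0.38 with its brightest probe set and by -0.69 to 0.67 over its 5 probe sets. Among the zinc finger genes related to Gli, Glis2 was the only one of 6 measured that was kept, at -0.32 with 1416598_at and at -1.05 with 1416599_at, which was at background in KO replicate 3.

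**Figure D4:**
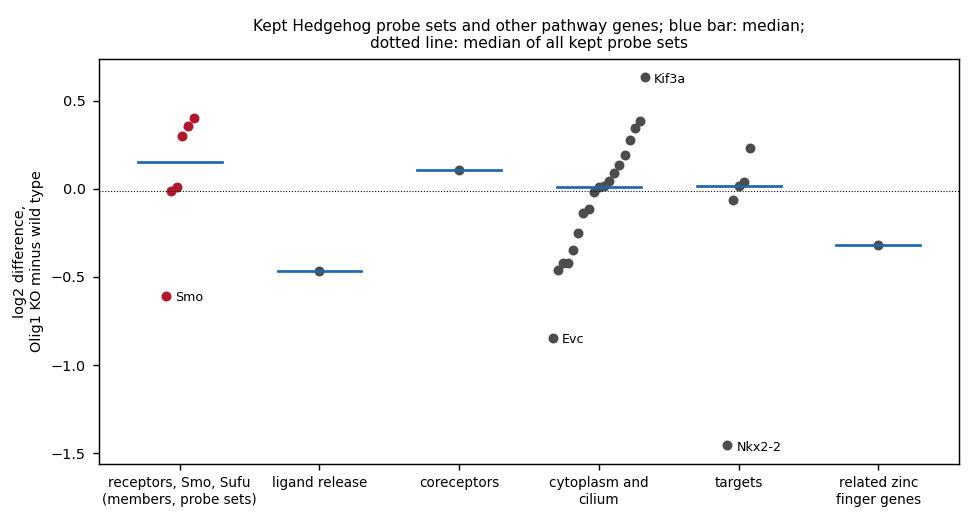
Log2 difference of Olig1 KO minus wild type for the 6 kept Hedgehog probe sets (red) and for the kept genes of the 5 other pathway lists (grey), with each list's median (blue bar) and the median of all kept probe sets, -0.01 (dotted line). Nkx2-2 at -1.45 and Evc at -0.84 are the lowest points, and Kif3a at 0.63 is the highest.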

How the data were processed

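The deposited intensities are linear signals that the authors made with MAS5, per the submitters' processing notes. Neither the MAS5 version nor the scaling target is given in the sources used here. Per the labels' protocols, 6 µg of Trizol-extracted total RNA went into biotin-labelled cRNA. Without the top and bottom 2% of probe sets, every deposited array averaged about 500.2. The number of arrays limits the precision.

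Intensities were turned into log2(signal + 14.4), with a pseudocount of 0.1 times the median of all values, a scale that understates the change of dim genes. The 64 control probe sets and then the lowest 40% of probe sets by mean were left out, and the other 13575 were fitted with lmFit and eBayes (limma 3.58.1, R 4.3.3), in a two-sided test with p-values adjusted by Benjamini-Hochberg over all of them (threshold 0.05). Since wild type is 1 array, the 2 residual degrees of freedom come from the KO arrays. The eBayes step added 4.75 prior degrees of freedom from all fitted probe sets, or 3.25 in the fit without a filter. Each SE, interval and p-value therefore does not measure the KO spread of its own probe set alone. For members that the filter left out, the fit without a filter (22626 probe sets) is given. The fit was also run on simulated data, with results not reported here. With 1 wild-type array, a lack of calls does not show that a gene is unchanged. With 4 arrays, an exact permutation of 1 against 3 cannot go below a p of 0.25. Genes were named from the platform annotation, in which 20393 probe sets have a single symbol, 691 have several and 1606 have none; symbols were updated through a RefSeq table of GRCm38.p6. All Hedgehog probe sets are described; of each other pathway list, up to 5 kept genes whose wild-type array lay outside the KO range were named by size of difference, and Ccnd1, Ccnd2, Rab34, Prkacb, Boc and Ihh were added after their values were seen. Members, lists and tests were chosen with earlier results of these data known. Alternatives covered the filter, scaling, pseudocount, eBayes settings, 1 row per gene, each KO array left out, and the pair of arrays as a block.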

Additional observations from a re-analysis of the deposited data

How the results depend on the processing

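No Hedgehog probe set passed the adjusted threshold under any alternative run (139 values, lowest limma adjusted p 0.594, for Smo 1427048_at without KO replicate 1), and 11 of the 16 kept their direction throughout. The other 5 changed sign in 10 values. With the array pair fitted as a block, which leaves KO replicate 1 against wild type, Shh was at -0.12 and Gli1 at 0.17. Gli1 was at 0.066 with a pseudocount of 0.5 times the median and at 0.58 without KO replicate 3, and its values with 1 KO array left out ran from -0.50 to 0.58. Smo 1427049_s_at was at 0.0096 with quantile normalization, and from -0.108 to 0.052 with 1 KO array left out (0.021 without replicate 1, 0.052 without replicate 2). With 1 KO array left out, Sufu 1450024_at ran from -0.11 (without replicate 1) to 0.081. Hhip 1438083_at was at 0.0019 with the larger pseudocount and ran from -0.16 to 0.21 (without replicate 1) with 1 KO array left out. The cause was not tested. Over all probe sets, the number called was 0 in all alternatives run except without KO replicate 1, so leaving out a KO array gave 0 to 5; the 5 were probe sets of Eif2s3y, Xist and Tmem87a and 2 without a gene symbol, and 1146 had an unadjusted p under 0.05. The wild-type array lay outside the KO range for 6238 of 13575 kept probe sets and 10320 of all 22626, a higher count because more probe sets entered. The wild-type group is 1 array, which could not be left out. Without KO replicate 1, the KO arrays left were all of the other pair than wild type. Genotype and pair cannot be told apart in that setting.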
